A study of Mus musculus with 16 samples.

Results

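The genes described here are 39 genes of the ATF4 stress response and of amino acid supply, taken by their listed names from the 38918 features of the deposited tables. They were 6 stress transcription factors, 5 stress effectors, 9 enzymes of amino acid and one-carbon synthesis, 7 amino acid transporters and 12 cytosolic aminoacyl-tRNA synthetases. Of the 39 genes, 35 reached at least 1 CPM, an exon read count scaled to a library of 1e+06 exon reads, in at least 1 condition, among 11122 features that did so, and 4 did not. RNA-seq was performed on mouse Blnk-/- pre-B cells that carried a retroviral BLNK-ERt2 fusion, as stimulated cells after 0.5, 1.5 and 5 h and as control cells. The knockout and the fusion were shared by all conditions, the stated purpose was to find targets of preBCR signalling, and the 4 samples of each condition, which share 1 index and differ in their lane number, were read as 4 sequencing lanes of 1 library, an inference that the labels do not state in words. BLNK is an adaptor that couples the preBCR, the receptor of B cell precursors, to its downstream enzymes, and the ERt2 domain makes the fused protein depend on tamoxifen. Because the fusion was overexpressed in knockout cells, these libraries show a reconstituted pathway rather than normal pre-B cells, and whether control cells received vehicle is not stated.

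ATF4 is a transcription factor whose protein is made when phosphorylation of the initiation factor eIF2 alpha slows general translation, as under amino acid shortage or stress of the endoplasmic reticulum. With C/EBP partners it binds the C/EBP-ATF response element, and its known targets include amino acid transporters, enzymes that make serine, proline and one-carbon units, tRNA synthetases, and feedback genes such as Trib3, Chac1 and Ddit3. Lymphocytes that start to grow after receptor signals raise their uptake of amino acids, which feed both protein synthesis and signalling through mTORC1.

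The response element core was looked up first in the promoters of the listed genes, because it is the sequence that ATF4 binds with its partners. The letters searched were TGATGNAA on either strand, in the 250 bases before and 50 bases after the start that RefSeq gives each gene on GRCm38.p6, and 31 of the 39 genes had an entry. The core was present in 13 of these 31 promoters (41.9%), against 4.51% of the 27025 promoters in the whole table. The list was drawn up around ATF4 and its known targets, so a higher share can follow from how the genes were chosen. It was found in 5 of 7 synthetase promoters, 3 of 5 of stress effectors, 2 of 5 of transporters, 2 of 8 of synthesis enzymes and 1 of 6 of transcription factors. Letters of the E-box, CACGTG, which is the core bound by MYC with MAX, were present in 4 of the 31 promoters (12.9%), against 8.09% of all. The CCAAT box letters were present in 21 of the 31 (67.7%), against 41.1% of all. The following stretches lie before the start and hold the element in capitals, as TGATGNAA or as its reverse complement. They come from a selection of the genes that carry the element, and others, such as Trib3 and Vldlr, are not printed. Asns and Slc7a11 had too few reads to show a course in RNA, and the rest followed different courses. Each stretch is written 5′ to 3′ on the strand of its gene.
Asns, chr6:7693210-7693252, minus strand: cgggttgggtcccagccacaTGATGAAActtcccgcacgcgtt
Slc7a11, chr3:50443633-50443699, minus strand: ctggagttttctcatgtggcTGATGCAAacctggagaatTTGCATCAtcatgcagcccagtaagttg
Atf3, chr1:191183416-191183463, minus strand: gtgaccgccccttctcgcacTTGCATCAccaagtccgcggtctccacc
Chac1, chr2:119351029-119351076, plus strand: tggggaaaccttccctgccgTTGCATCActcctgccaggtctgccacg
Pycr1, chr11:120643824-120643871, minus strand: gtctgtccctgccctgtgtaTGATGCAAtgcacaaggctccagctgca
Tars, chr15:11399659-11399693, minus strand: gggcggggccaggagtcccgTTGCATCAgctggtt
Gars, chr6:55037951-55037998, plus strand: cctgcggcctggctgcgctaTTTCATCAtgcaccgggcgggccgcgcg
Aars, chr8:111033710-111033757, plus strand: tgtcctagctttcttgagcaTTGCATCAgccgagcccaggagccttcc
The first base of the motif lay 23 bases before the start in Asns, 30 in Gars and 15 in Tars. It lay 110 bases before the start in Atf3, 193 in Chac1, 103 in Pycr1 and 112 in Aars. Slc7a11 held the element at 66 and at 47 bases before its start, in opposite directions. A match of letters is not evidence of binding.

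The libraries held 34533362 exon reads in control cells, 33864004 at 0.5 h, 32631061 at 1.5 h and 30746189 at 5 h. All 7 pre-B markers that were found, among them Vpreb1, Igll1 and Cd79a, were above 1 CPM in every library, and their sum was 12088, 11401, 10438 and 9843 CPM in the same order. Ighm made up the largest part of that sum, with 5997, 5473, 4998 and 4793 CPM, while Pax5 had 290, 417, 353 and 396 CPM. None of 8 T and NK cell markers reached 1 CPM, with sums of 0.232, 0.561, 0.245 and 0.553 CPM, and Cd4 and Ncr1 were at 0 in every library. The sum of 7 myeloid markers was 75.5, 74.8, 66.3 and 41.8 CPM in that order, with 4 at 1 CPM or more, and Ly6g was at 0 throughout. Most of it was Itgam, with 69.0, 66.3, 58.5 and 35.9 CPM, while Lyz2 and Mpo stayed at 1.62 CPM or less. Cd68 had 3.10, 5.37, 4.60 and 3.42 CPM, above control at every time. Of 7 erythroid and megakaryocyte markers, 1 reached 1 CPM (Itga2b), with sums of 2.94 to 3.48 CPM. Of 8 stromal and endothelial markers, 1 reached 1 CPM (Pecam1, 130 to 167 CPM), and Col3a1, Kdr and Cxcl12 were at 0 in every library. In bulk RNA, fewer cells of a type and less RNA per cell cannot be told apart.

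Lanes of 1 library share its RNA, so there was no spread between cultures and no test between conditions, and no p-value is given. After 1 CPM was added to each of the 2 libraries compared, a gene at 2-fold or more was called higher or lower if the larger CPM was 5 or above, and log2 ratios are on this scale. The folds given are plain CPM ratios, without that addition, and each is followed by an exact 95% Clopper-Pearson interval that covers counting error only. Reads outside exons are all reads of a gene minus its exon reads, so they can lie in introns, and they were scaled to the same exon totals.

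**Figure D1:**
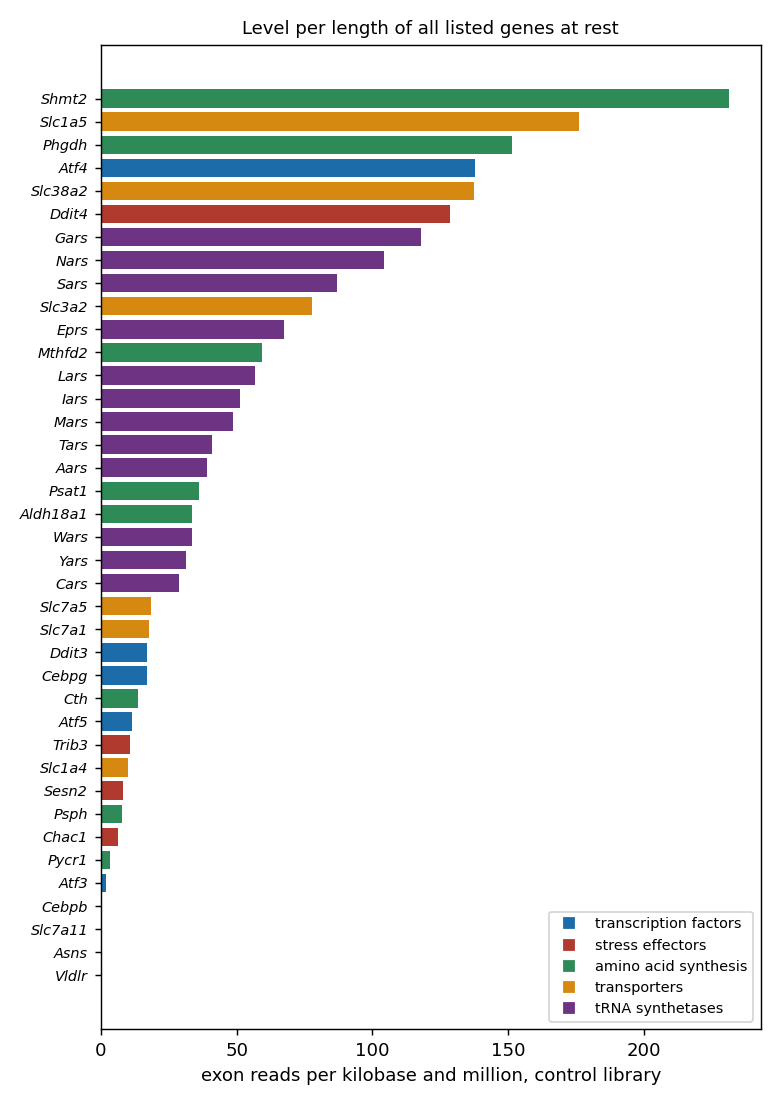
Level of each of the 39 listed genes in control cells, as CPM per kilobase of exon, coloured by role. Shmt2 (231), Slc1a5 (176) and Phgdh (152) head the order, and Cebpb, Slc7a11, Asns and Vldlr are at 0.058 or less.

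In control cells the group was unevenly expressed. In CPM per kilobase of exon, Shmt2, the mitochondrial serine hydroxymethyltransferase that feeds one-carbon metabolism, was at 231. Slc1a5, the neutral amino acid and glutamine transporter ASCT2, was at 176, and Phgdh, the first enzyme of serine synthesis, at 152. Atf4 itself was at 138 and Slc38a2, the sodium-coupled transporter SNAT2, at 137. The 12 synthetases ranged from 28.8 for Cars to 118 for Gars on this scale. At the low end of the genes that passed 1 CPM were Pycr1, a proline synthesis enzyme, at 3.54, and Atf3, a stress-induced repressor and activator, at 1.71.

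Asparagine synthetase RNA was close to absent in all 4 libraries. Asns, whose enzyme makes asparagine from aspartate and glutamine, had 1 exon read in control cells, 1 at 0.5 h, 4 at 1.5 h and 1 at 5 h. A count of 0 would allow up to 3 reads, which is 0.0869, 0.0886, 0.0919 and 0.0976 CPM in the same order, so Asns stood below that limit in 3 libraries and 1 read above it at 1.5 h. Slc7a11, the cystine-glutamate exchanger xCT, had 6, 6, 5 and 8 reads, Cebpb, a C/EBP partner of ATF4, had 3, 1, 3 and 6, and Vldlr, a lipoprotein receptor, had 0, 2, 0 and 1. Asns, Slc7a11 and Vldlr hold the response element core in their promoters, Asns and Slc7a11 in the stretches printed above. Slc3a2, the heavy chain that pairs with Slc7a11, was at 230 CPM in control cells, where it can also pair with Slc7a5.

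**Figure D2:**
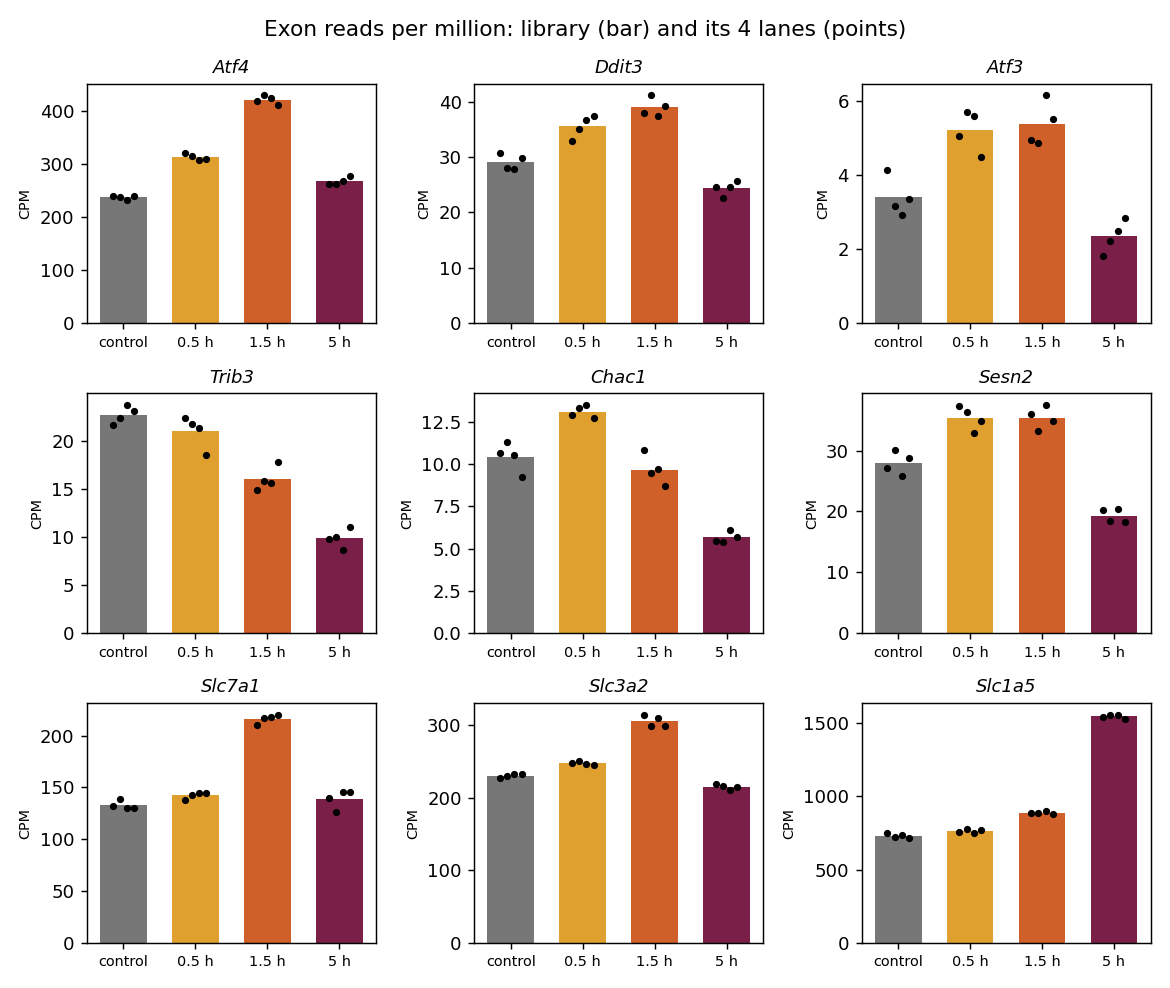
Exon reads in CPM in control cells and at 0.5, 1.5 and 5 h for 9 genes; bars are the library and points its 4 sequencing lanes, which are not replicates of the condition. Atf4 and Slc7a1 stand highest at 1.5 h (422 and 217 CPM), Trib3 stands lowest at 5 h (9.82 CPM), and Slc1a5 stands at 1547 CPM at 5 h.

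Atf4 RNA, from chr15:80255184-80257540 of mm10, was higher at all 3 times, most at 1.5 h. It had 237 CPM in control cells, 314 at 0.5 h, 422 at 1.5 h and 268 at 5 h. The lanes of the 4 libraries did not overlap, with 232 to 240, 308 to 321, 412 to 431 and 262 to 278 CPM in the same order. Here and below, lane ranges show the spread between lanes of 1 library, not between cultures. The ratio to control was 1.32 (1.28 to 1.36) at 0.5 h, 1.78 (1.73 to 1.83) at 1.5 h and 1.13 (1.09 to 1.16) at 5 h. None of these reached the 2-fold rule. Atf4 RNA is not a measure of ATF4 protein, which is set largely by translation.

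The other stress transcription factors had their highest level at 1.5 h as well, except Atf5. Ddit3, which encodes CHOP, a C/EBP family factor of prolonged stress, had 29.1, 35.5, 38.95 and 24.4 CPM in the order control, 0.5, 1.5 and 5 h, and its ratio at 1.5 h was 1.34 (1.23 to 1.46). The end of its region overlaps Mars, at 164 to 183 CPM, and no source says whether counting used strand. Atf3 had 3.39, 5.20, 5.36 and 2.34 CPM in that order, with ratios to control of 1.53 (1.21 to 1.95) at 0.5 h and 1.58 (1.25 to 2.02) at 1.5 h. At 5 h Atf3 and Ddit3 were both below control. Cebpg, a C/EBP that dimerizes with ATF4, had 83.7, 83.0, 97.0 and 74.2 CPM in the same order. Atf5, a related factor of the mitochondrial stress response, had 23.2, 27.4, 28.7 and 31.3 CPM, and was highest at 5 h, at 1.35 times control. Only 67.7% of its reads were uniquely placed, and Nup62 and Il4i1 overlap it.

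All 4 measured stress effectors were below control at 5 h, as were 3 of the 5 transcription factors. Of all 11122 features kept, 5648 were below control at that time, so 3 of 5 is near the share of all features. Trib3 (chr2:152337422-152344032), a pseudokinase that restrains the ATF4 response, had 22.7 CPM in control cells, 21.0 at 0.5 h, 16.0 at 1.5 h and 9.82 at 5 h. It was 1.42-fold lower (1.27 to 1.59) at 1.5 h and 2.31-fold lower (2.02 to 2.64) at 5 h than in control cells, and the lane ranges of 14.8 to 17.7 CPM at 1.5 h and 8.61 to 10.97 CPM at 5 h lay below the 21.6 to 23.7 CPM of control. Chac1, an enzyme that degrades glutathione, had 10.45, 13.1, 9.68 and 5.66 CPM in the order control, 0.5, 1.5 and 5 h, so that it was 1.25-fold higher (1.09 to 1.45) at 0.5 h and 1.85-fold lower (1.54 to 2.23) at 5 h. Sesn2, a leucine sensor that holds back mTORC1, had 27.9, 35.4, 35.4 and 19.3 CPM, which is 1.27-fold higher than control at 0.5 and 1.5 h and 1.45-fold lower (1.31 to 1.61) at 5 h. Ddit4, or REDD1, another inhibitor of mTORC1 signalling, had 217, 206, 185 and 180 CPM in the same order. Sesn2 and Chac1 thus peaked before 5 h, while Trib3 and Ddit4 had their highest level in control cells. Itgam was also lower at 5 h, with 35.9 CPM against 69.0 CPM in control cells, as was the sum of pre-B markers given above. Of the 7 pre-B markers, 6 were below control at 5 h, but Pax5 was higher, with 396 CPM against 290 CPM. The myeloid marker Cd68 was not lower either, with 3.42 CPM against 3.10 CPM. The part of cell makeup in the lower stress effectors was not tested.

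**Figure D3:**
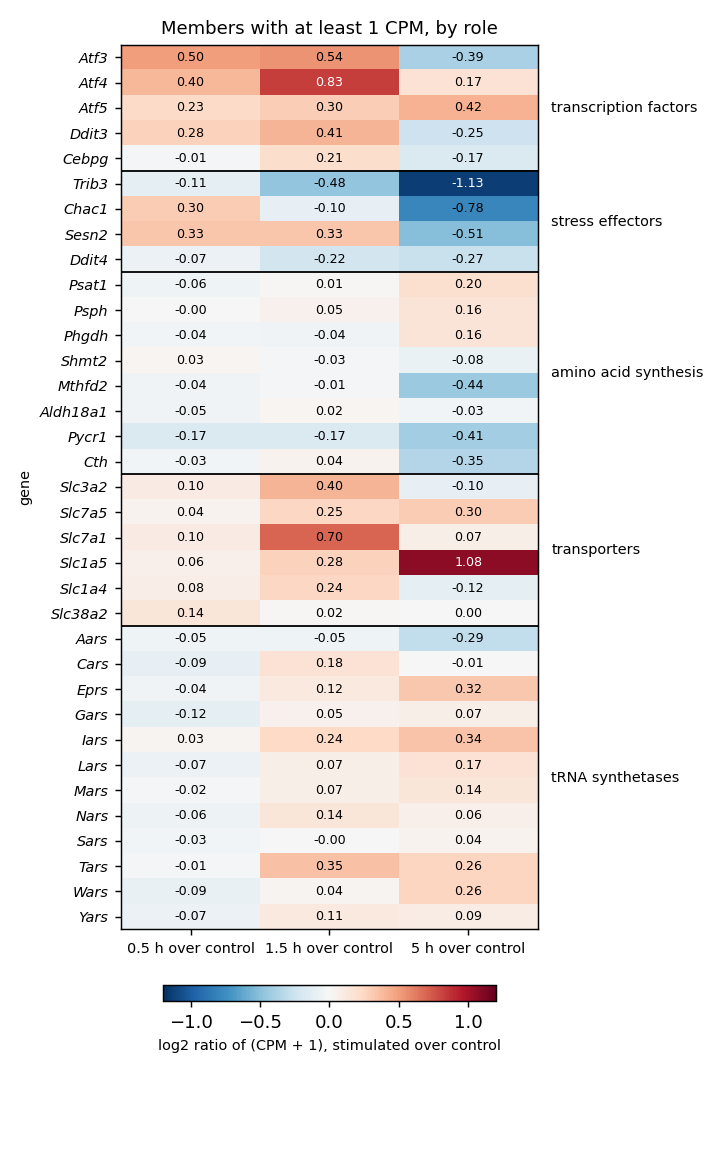
Log2 ratio of CPM + 1 over control for the 35 genes with at least 1 CPM, in rows by role and in columns at 0.5, 1.5 and 5 h; red is higher and blue lower than control. Slc1a5 (1.08) and Trib3 (-1.13) at 5 h are the 2 cells past 2-fold.

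All 6 measured amino acid transporters were above control at both 0.5 and 1.5 h, against 49.1% and 47.3% of all features. At 0.5 h the intervals of Slc7a5 (1.03, 0.974 to 1.09) and Slc1a4 (1.06, 0.982 to 1.14) included 1. At 1.5 h that of Slc38a2 did so (1.01, 0.994 to 1.03). Slc7a1 (chr5:148327410-148399904), the cationic amino acid transporter CAT1 for arginine and lysine, had 133 CPM in control cells, 143 at 0.5 h, 217 at 1.5 h and 139 at 5 h. Its ratio to control was 1.63 (1.57 to 1.69) at 1.5 h and 1.05 (1.004 to 1.09) at 5 h. Lanes at 1.5 h, 210 to 220 CPM, lay above the 130 to 139 CPM of control. Slc3a2 had 230, 247, 305 and 215 CPM in the same order of conditions, with a ratio of 1.32 (1.29 to 1.37) at 1.5 h. Its partner Slc7a5, the large neutral amino acid transporter LAT1, had 68.5, 70.6, 81.4 and 84.5 CPM, with 72.9% of reads uniquely placed. Slc1a4, a transporter of alanine and serine, had 39.7, 42.0, 47.2 and 36.4 CPM, and Slc38a2 had 636, 701, 644 and 638 CPM.

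Slc1a5 (chr7:16781346-16798274) followed a later course than Slc7a1 and Slc3a2. It had 732 CPM in control cells, 765 at 0.5 h, 889 at 1.5 h and 1547 at 5 h. Its lanes ran from 717 to 752 CPM in control cells, from 754 to 777 at 0.5 h, from 879 to 903 at 1.5 h and from 1527 to 1559 at 5 h, with no overlap between conditions. The ratio to control was 1.21 (1.19 to 1.23) at 1.5 h and 2.11 (2.08 to 2.14) at 5 h. At 5 h Slc1a5 stood at 372 CPM per kilobase of exon, against 176 in control cells.

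The enzymes of amino acid synthesis changed little in exon reads. Phgdh, Psat1 and Psph, the 3 enzymes that make serine from 3-phosphoglycerate, had 377, 154 and 31.2 CPM in control cells. At 5 h their ratios to control were 1.12 (1.09 to 1.14), 1.15 (1.10 to 1.19) and 1.12 (1.03 to 1.22). Only 23.6% of Phgdh reads were uniquely placed, so reads may be shared with near-identical copies and its level is uncertain. Mthfd2, the mitochondrial one-carbon dehydrogenase, had 161, 157, 160 and 119 CPM in the order control, 0.5, 1.5 and 5 h, and was 1.36-fold lower (1.31 to 1.42) at 5 h. Pycr1 had 13.9, 12.3, 12.2 and 10.2 CPM and Cth, which makes cysteine from cystathionine, 30.6, 29.8, 31.5 and 23.7 CPM. Both were likewise lowest at 5 h. Shmt2, with 534, 543, 523 and 506 CPM, and Aldh18a1, the first enzyme of proline synthesis, with 137, 133, 139 and 135 CPM, stayed close to control at every time.

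The tRNA synthetases moved by small amounts, and mostly in the same direction as each other. At 0.5 h, 11 of 12 were below control, with a median log2 ratio of -0.06. At 1.5 and 5 h, 10 of 12 were above control, with medians of 0.09 and 0.11. The intervals of Iars, Mars, Sars and Tars at 0.5 h, of Sars and Wars at 1.5 h, and of Cars and Sars at 5 h included 1. Under other scalings of the libraries, Sars at 1.5 h and Cars at 5 h changed sign. Of all features, 49.1, 47.3 and 49.2% were above control at 0.5, 1.5 and 5 h. Tars, which charges threonine tRNA, had 108, 107, 138 and 130 CPM in the order control, 0.5, 1.5 and 5 h, a ratio of 1.28 (1.23 to 1.34) at 1.5 h. Iars and Eprs, for isoleucine and for glutamate and proline, were highest at 5 h with 343 and 411 CPM, against 271 and 328 CPM in control cells. Aars, for alanine, went the other way at 5 h, with 296 CPM against 363 CPM in control cells, and was 1.23-fold lower (1.19 to 1.26). Wars, for tryptophan, had 116, 109, 119 and 139 CPM in control, 0.5, 1.5 and 5 h, and Lars, for leucine, 218, 208, 229 and 246 CPM, both highest at 5 h. Nars, for asparagine, had 274, 263, 303 and 287 CPM, Cars, for cysteine, 134, 125, 151 and 133 CPM, and Yars, for tyrosine, 186, 178, 202 and 198 CPM, each highest at 1.5 h. Sars, for serine, stayed between 311 and 327 CPM, Mars, for methionine, between 164 and 183 CPM, and Gars between 260 and 297 CPM. Of the 7 synthetases with a promoter entry, 5 hold the response element core. They are Tars, Gars and Aars, printed above, and Iars and Yars, where it lies after the start.

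Over all 35 genes, the counts called were few in every comparison. Shares of features called by exon reads are of those with 5 CPM or above in the larger library. These numbered 9516, 9512 and 9520 at 0.5, 1.5 and 5 h over control. At 0.5 h, none was called, against a background of 0.284% of features called higher and 0.021% lower. At 1.5 h, none was called again, against 0.641% higher and 0.21% lower. At 5 h, Slc1a5 was called higher and Trib3 lower, against 0.336% higher and 0.399% lower. That is 1 in each direction of the 34 genes that met the 5 CPM floor at that time. The median log2 ratio of the 35 genes was -0.02 at 0.5 h, 0.07 at 1.5 h and 0.04 at 5 h, beside -0.00, -0.01 and -0.00 for all features. Above 0 were 14, 26 and 19 of the 35 genes at 0.5, 1.5 and 5 h (40.0, 74.3 and 54.3%), against 49.1, 47.3 and 49.2% of all features. The times share 1 control library, so their ratios are not independent of each other.

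With a smaller threshold of 1.5-fold, none of the 35 genes was called at 0.5 h, where 0.673% of features were higher and 0.147% lower. At 1.5 h, Atf4 and Slc7a1 were higher and none was lower, against 3.37% of features higher and 1.99% lower. At 5 h, Slc1a5 was higher, and Trib3 and Chac1 were lower, against 2.21% higher and 2.98% lower.

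Successive times were also set against each other. Between 0.5 and 1.5 h no gene was called at 2-fold, where 0.189% of features were higher and 0.221% lower. Slc7a1 was higher at the 1.5-fold threshold, with 217 CPM at 1.5 h against 143 CPM at 0.5 h (1.76% of features higher, 1.84% lower). All 12 synthetases were above 0 in this comparison, by a median log2 ratio of 0.17, against 47.3% of all features. The intervals of Aars (1.0002, 0.975 to 1.03) and Sars (1.02, 0.994 to 1.05) included 1, and Aars fell below 0 with uniquely placed reads. Between 1.5 and 5 h none was called at 2-fold, where 0.0952% of features were higher and 0.444% lower. At the 1.5-fold threshold 7 genes were lower at 5 h than at 1.5 h (Atf3, Sesn2, Chac1, Ddit3, Atf4, Trib3 and Slc7a1), against 2.12% of features, and Slc1a5 was higher, against 1.3%. The 7 genes were 3 of 5 transcription factors, 3 of 4 stress effectors and 1 of 6 transporters, and no synthesis enzyme or synthetase was among them. Atf4, for one, had 268 CPM at 5 h against 422 CPM at 1.5 h, 1.58-fold lower (1.53 to 1.62), and Sesn2 had 19.3 CPM against 35.4 CPM, 1.84-fold lower (1.66 to 2.03).

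**Figure D4:**
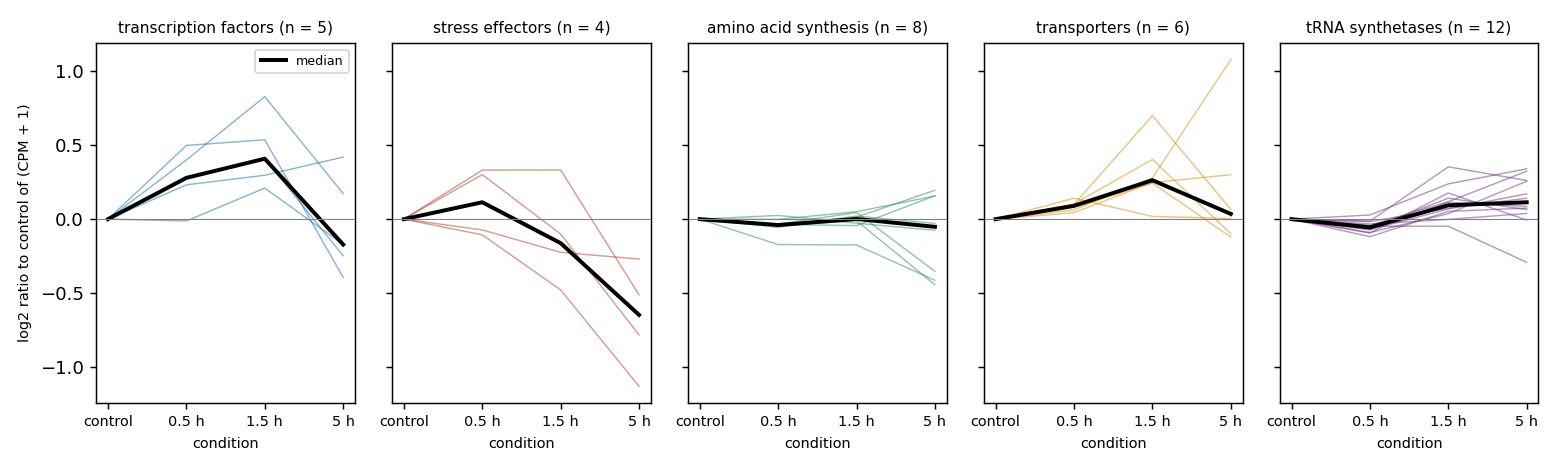
Log2 ratio of CPM + 1 over control for each of the 35 genes (thin lines) and the median of each role (thick line), in the order control, 0.5, 1.5 and 5 h. The medians at 5 h are -0.17 for transcription factors, -0.65 for stress effectors, -0.05 for synthesis, 0.04 for transporters and 0.11 for synthetases.

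The roles differed in their medians as well. Transcription factors were at 0.28, 0.41 and -0.17 on the log2 scale at 0.5, 1.5 and 5 h over control, and stress effectors at 0.11, -0.16 and -0.65. Transporters were at 0.09, 0.26 and 0.04, and synthesis enzymes at -0.04, 0.00 and -0.05. The highest of the 4 levels was at 1.5 h in 14 of the 35 genes, at 5 h in 13, in control cells in 5 and at 0.5 h in 3. The shares of 40.0% at 1.5 h and 37.1% at 5 h compare with 23.2% and 28.7% of all features. By role, 4 of 5 transcription factors peaked at 1.5 h and 7 of 12 synthetases at 5 h.

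Reads outside exons gave a second readout of the same genes, and at 1.5 h it moved more than the exon reads did. It could be taken for 32 genes that had at least 50 such reads in the 2 libraries together. The median ratio over control at 1.5 h was 1.45 outside exons and 1.07 in the exons of the same genes, while all 9512 features measured this way had 1.06 outside and 0.992 in exons. Of the 32 genes, 31 were above 0 on the log2 scale (96.9%), against 58.7% of all features. At least 1.5-fold higher were 15 of them, against 11.8% of features, and at least 2-fold higher were 5, against 3.23%. Only Trib3 was at least 1.5-fold lower, where 5.62% of features were. The ratio outside exons was above that in exons in 25 of the 32 genes, against 62.2% of all features.

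**Figure D5:**
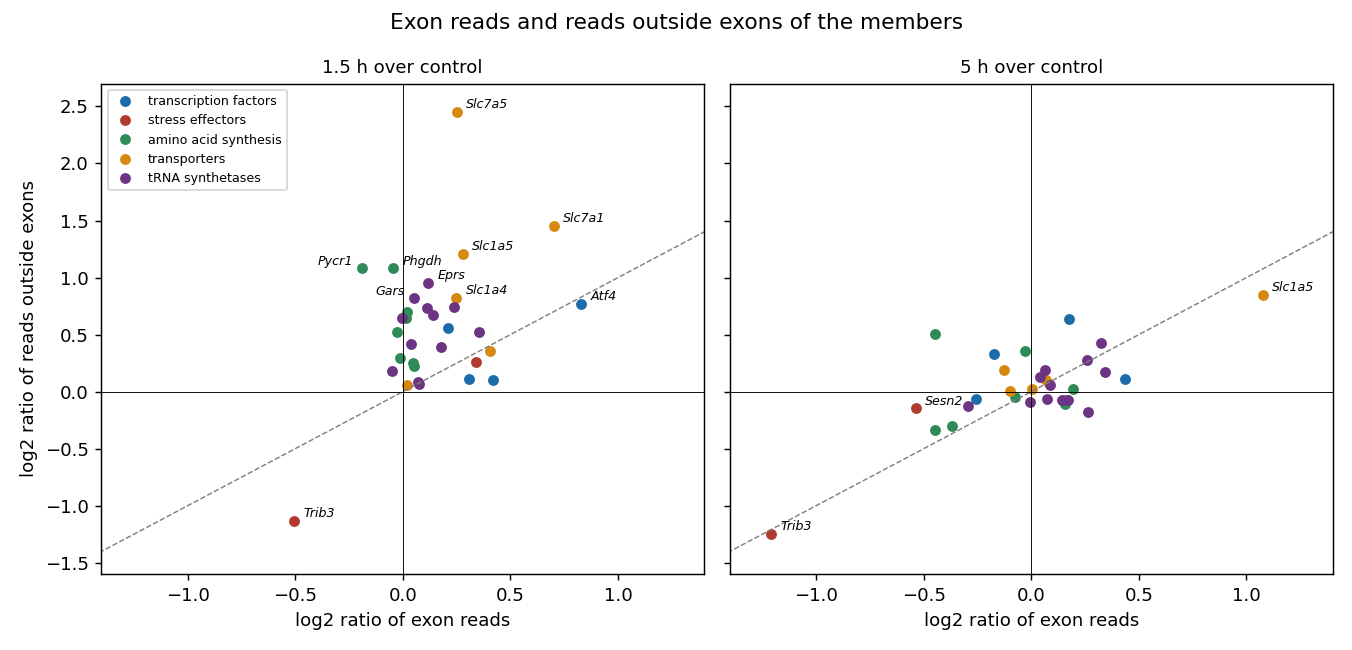
Log2 ratio of reads outside exons (vertical) against that of exon reads (horizontal) for the genes measured both ways, at 1.5 h and 5 h over control; the dashed line marks equal ratios. At 1.5 h, Slc7a5 lies highest (2.45 outside exons, on few reads), and Slc7a1, Slc1a5, Phgdh, Pycr1 and Eprs also lie well above the line. At 5 h most points lie nearer to 0. Outside exons, Slc1a5 and Atf4 (1.56-fold) are then above 0 and Trib3 is below 0, and Slc1a5 lies below the dashed line.

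In Slc1a5 the 2 readouts were highest at different times. Its reads outside exons numbered 4255 in control cells, 3903 at 0.5 h, 9277 at 1.5 h and 6823 at 5 h, which is 123, 115, 284 and 222 CPM. Outside exons the ratio to control was thus 2.31 (2.22 to 2.39) at 1.5 h and 1.801 (1.73 to 1.87) at 5 h, whereas in exons it was 1.21 at 1.5 h and 2.11 at 5 h. Slc7a1, highest at 1.5 h in both readouts, had 333, 356, 863 and 319 reads outside exons in the same order, a ratio of 2.74 (2.41 to 3.12) at 1.5 h. Phgdh had 829, 721, 1656 and 685, a ratio of 2.11 (1.94 to 2.30) at 1.5 h, while its exon ratio was 0.970. Slc7a5 had only 12, 29, 62 and 16 such reads, and the long feature Gm20388, at 122 CPM in control cells, overlaps it, so its ratio of 5.47 (2.92 to 11.1) is uncertain.

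Most synthesis enzymes and synthetases also had the higher ratio outside exons at 1.5 h, when their exon reads were close to control. Outside exons, all 8 synthesis enzymes exceeded their own exon ratio, with a median of 1.50-fold, and 11 of 12 synthetases did so, also with a median of 1.50-fold. Aldh18a1 had 2430, 2349, 3728 and 2764 reads outside exons in the order control, 0.5, 1.5 and 5 h, a ratio of 1.62 (1.54 to 1.71) at 1.5 h, against 1.01 in exons. Eprs had 480, 506, 880 and 574, a ratio of 1.94 (1.73 to 2.17). Gars, which charges glycine tRNA, had 645, 758, 1075 and 548, a ratio of 1.76 (1.60 to 1.95), and Psat1 had 328, 277, 485 and 297, a ratio of 1.56 (1.36 to 1.81). At 5 h the exon ratios to control were 0.980 for Aldh18a1, 1.25 for Eprs, 1.05 for Gars and 1.15 for Psat1. Among 4 transcription factors measured outside exons at 1.5 h, 1 exceeded its exon ratio. Atf4 and Atf5 had only 115 and 105 such reads in the 2 libraries together, and the regions of Atf5 and Ddit3 overlap other genes.

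By 5 h most of this difference outside exons was gone. The median ratio outside exons over control was 1.02 for 31 genes at 5 h, where all features stood at 1.13, and 1.07 for 31 genes at 0.5 h. At 5 h, 2 genes were at least 1.5-fold higher and 1 lower, against 6.35% and 2.05% of features. At 0.5 h, 1 was higher and 1 lower, against 4.23% and 2.45%. The gene higher at 0.5 h was Atf4, with 93 reads outside exons against 44 in control cells, a ratio of 2.16 (1.49 to 3.16) on few reads. Trib3 was the gene lower at both times, with 41 reads outside exons at 0.5 h, 31 at 1.5 h and 27 at 5 h, and 72 in control cells. At 1.5 h its ratio outside exons was 2.19-fold lower (1.42 to 3.46), so that both readouts of Trib3 were below control. From 0.5 to 1.5 h, 11 of 32 genes were at least 1.5-fold higher at 1.5 h and none was lower, against 7.98% and 4.6% of features. From 1.5 to 5 h, 31 of 32 were below 0, while 59.1% of all features were above 0. In that step 9 of the genes were at least 1.5-fold lower at 5 h and none higher, against 5.35% and 7.85% of features. Reads outside exons of whole libraries were 18.9, 18.8, 19.6 and 20.8 per 100 exon reads in control, 0.5, 1.5 and 5 h. Scaled to reads outside exons instead, the median log2 ratio of the 31 genes at 5 h over control was -0.11, against 0.02.

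Other genes of the pathway were looked up in 7 lists. For a list of this length, none called is near what the share of all features called at 2-fold gives, at most 0.641% in either direction at any time against control. Among 8 kinases and phosphatase regulators of eIF2 alpha, 1 was called higher at 0.5 h, where 0.284% of features were called higher and 0.021% lower. Ppp1r15a, or GADD34, which brings the phosphatase that removes the eIF2 alpha mark and is itself an ATF4 target, had 20.6 CPM in control cells, 50.3 at 0.5 h, 26.7 at 1.5 h and 21.6 at 5 h. Its ratio at 0.5 h was 2.44 (2.24 to 2.67). Eif2ak3, the kinase PERK of the endoplasmic reticulum, was 1.46-fold lower (1.37 to 1.56) at 1.5 h, with 45.8 CPM against 67.0 CPM in control cells. Impact, an inhibitor of the amino acid sensing kinase GCN2, had 21.7, 22.4, 29.8 and 32.2 CPM in the order control, 0.5, 1.5 and 5 h.

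Among 17 mitochondrial tRNA synthetases, 1 was called higher, at 1.5 h, where 0.641% of features were called higher and 0.21% lower. Mars2, for mitochondrial methionine tRNA, had 22.3, 28.5, 47.7 and 30.3 CPM in the same order, a ratio of 2.14 (1.96 to 2.34) at 1.5 h. Yars2 followed with a ratio of 1.54 (1.39 to 1.70) at 1.5 h, while the median log2 ratio of the 17 was -0.04. Of 11 other cytosolic synthetases and cofactors none was called at any time against control. Eef1e1, a scaffold protein of the multisynthetase complex, was nearest at 1.5 h, with 54.6 CPM against 29.2 CPM in control cells, and Aimp2, another scaffold protein, stood at 1.50 (1.37 to 1.65).

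Of 10 other amino acid transporters with at least 1 CPM, none was called against control. Slc7a7, a partner of Slc3a2 that carries cationic amino acids in exchange for neutral ones, was highest at 5 h like Slc1a5, with 42.8, 44.4, 59.5 and 83.6 CPM in control, 0.5, 1.5 and 5 h, a ratio of 1.95 (1.83 to 2.08) at 5 h. Slc43a2, a facilitative transporter of large neutral amino acids, was 1.52-fold lower (1.41 to 1.64) at 5 h. None of 20 other amino acid and one-carbon enzymes was called either. Among them, Shmt1, the cytosolic counterpart of Shmt2, was at 1.53 (1.45 to 1.62) at 5 h and Mthfd1, the cytosolic one-carbon enzyme, at 1.35 (1.29 to 1.41), beside the lower Mthfd2 of the mitochondrion.

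Of 14 other stress genes linked to ATF4, none was called against control. Sesn1, a relative of Sesn2, was 1.801-fold lower (1.68 to 1.93) at 1.5 h, with 38.0 CPM against 68.5 CPM in control cells, at the time when Sesn2 was 1.27-fold higher. Gadd45a, a growth arrest gene, had 3.31 CPM at 1.5 h against 7.5 CPM in control cells, with 65.8% of reads uniquely placed. Of 20 genes of amino acid sensing by mTORC1 none was called against control, and the median log2 ratios were 0.01, -0.09 and -0.03 at 0.5, 1.5 and 5 h. Rheb, the GTPase that activates mTORC1, had 70.2 CPM at 1.5 h against 51.9 CPM in control cells, and Depdc5, part of the GATOR1 brake on mTORC1, had 88.1 CPM at 5 h against 116 CPM in control cells. Myc, a transcription factor that drives growth and for which several amino acid transporters are known targets, had 293, 923, 875 and 341 CPM in control, 0.5, 1.5 and 5 h. Its ratios to control were 3.15 (3.08 to 3.22), 2.99 (2.92 to 3.06) and 1.16 (1.13 to 1.19) in the order of time.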

How the data were processed

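Poly(A) RNA, extracted with PeqGOLD TriFast, was sequenced on an Illumina HiSeq instrument from TruSeq or NEBNext libraries, per the labels' protocols, which do not say which library had which kit. CASAVA 1.8.2 and mm10 are named in the submitters' processing notes. The sources used here give no aligner, no counting program and no use of strand. Per the file headers, the deposited values are counts per gene and lane, not normalized, with total and uniquely placed reads of exons and of whole genes, and other columns give exon length. RPKM columns and the authors' ratios were not used.

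The 16 samples carry 1 index per condition and were summed as 4 lanes of each of 4 libraries. Lanes held 7631791 to 8709054 exon reads, and lanes of the same library varied at 0.992 to 1.01 (chi-square over its degrees of freedom) in uniquely placed reads, that is by no more than sampling noise, and at 1.24 to 1.32 in all exon reads, so the intervals are somewhat too narrow. Counts were scaled to CPM of total exon reads. Features with at least 1 CPM in any condition were kept. All 39 genes were named, and of each other list up to 3 genes with the largest log2 ratio against control and at least 5 CPM, plus Myc. Some of these are left out of the text. Members and lists were chosen with earlier results of these data known. The calls were tested on simulated counts. Promoter sequences are from RefSeq. Python 3.11.15, pandas 2.3.3, scipy 1.17.1, edgeR 4.0.16 (TMM factors) and DESeq2 1.42.0 (size factors) were used. Reads are not independent molecules, so intervals and floors cover counting error only.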

Additional observations from a re-analysis of the deposited data

How the results depend on the processing

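Each condition had 1 library, so no setting replaces a second culture, and depth limits the 4 genes with 8 reads or fewer. TMM and DESeq2 factors, centring on all features, CPM floors, uniquely placed reads and whole-gene reads left every count of called genes as it was. With 0.1 CPM added, 1 gene (Atf3, log2 ratio -1.16) was called at 5 h over 1.5 h, where none was before, and with 5 CPM added, 1 was called at 5 h over control, since Trib3 came to -0.90. At 1.5-fold, 2 genes were called at 1.5 h over control, 1 at 1.5 h over 0.5 h and 8 at 5 h over 1.5 h. Scaled to reads outside exons, the median log2 ratio outside exons at 5 h over control was -0.11, against 0.02. Of 2937 alternative values for single genes, 2873 stayed within the counting interval of the value given or, for called genes, kept the call, and 0 turned a called value round. A changed CPM floor or fold threshold leaves the log2 ratio as it is. Those settings gave 175, 175 and 163 of the 2873, which could not move. A change of sign came in 71 of the 2937 values, all of genes that were not called, where the value given was at most 0.26 in size on the log2 scale. Among these, Lars at 5 h over 1.5 h was -0.03 with whole-gene reads, against 0.10, and Lars outside exons at 5 h over control was 0.22 with uniquely placed reads, against -0.07. With uniquely placed reads alone, a choice made after seeing the data, the log2 ratio outside exons at 1.5 h was 1.002 for Aldh18a1 and 0.56 for Lars, against 0.70 and 0.09, and it was 1.07 for Phgdh.

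Samples share lane numbers, which here name a sequencing lane and pair no cultures. With the lane as a replicate block, the counts of called genes were 0, 0 and 2 at 0.5, 1.5 and 5 h over control, and the medians -0.02, 0.07 and 0.04. Leaving out each lane in turn, 2 genes were called at 5 h and 0 in the other comparisons. The median then ranged from -0.03 to -0.01 at 0.5 h, from 0.07 to 0.11 at 1.5 h and from 0.03 to 0.05 at 5 h over control, from 0.08 to 0.12 at 1.5 h over 0.5 h and from -0.07 to -0.05 at 5 h over 1.5 h.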
